A study of Mus musculus with 13 samples.

Results

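Glutamate receptors and the proteins that hold them at the postsynaptic membrane were followed as transcripts of 37 genes among the 36287 in the deposited table. The genes were chosen by symbol, with earlier results of these data known. They are 4 AMPA receptor subunits, 6 NMDA receptor subunits, 6 kainate and delta receptor subunits and 6 metabotropic glutamate receptors. The others are 4 AMPA receptor auxiliary subunits, 9 scaffold proteins and 2 CaMKII subunits. Every one of the 37 had enough counts to be tested, and the lowest count in any library was 182, for Grm8. Bulk mRNA was sequenced from the hippocampus of 5xFAD mice, a line that carries human transgenes bearing mutations of familial Alzheimer's disease under the neuronal Thy1 promoter. The mice had received saline (n = 4, animals 18, 19, 32 and 38), Aducanumab, which binds aggregated amyloid beta as an antibody (n = 4, animals 24, 50, 56 and 58), or ACLP-NT, an agent known here by its code name (n = 5, animals 17, 27, 49, 53 and 55). All 3 groups carry the transgenes, and their age, sex, dose and length of treatment were not found in the labels. Wild-type mice were not analysed here, and the saline group serves as background throughout.

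Most fast excitatory signals in the hippocampus pass through AMPA receptors, tetramers of the products of Gria1 to Gria4. NMDA receptors, built from the obligatory Grin1 product and Grin2 or Grin3 subunits, admit calcium when glutamate arrives on a depolarized membrane, and that calcium activates CaMKII, the kinase through which synapses are strengthened. Kainate receptors have their best known place in CA3, at the mossy fibre synapses, while metabotropic receptors act through G proteins on both sides of the synapse. The membrane-associated guanylate kinases (Dlg1 to Dlg4), the Shank proteins and the Homer proteins form layers of the postsynaptic density under the receptors.

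Library totals ranged from 57513570 to 69734713 counts for saline, from 56858092 to 64431803 for Aducanumab and from 53642019 to 64874729 for ACLP-NT, and the 37 genes together took 1.09% to 1.29% of them. Markers of the hippocampal fields were present in every library. Dentate gyrus markers summed to 205.7 to 372 CPM (counts scaled to library size), CA1 markers to 325 to 553 CPM, and CA3 and CA2 markers to 280.3 to 375 CPM. Choroid plexus markers, from tissue beside the hippocampus, summed to 46.6 to 5062 CPM, with low and high libraries in each group. Each library carries its own number in the labels, read here as the animal. How many litters or days lie behind the libraries is not stated there. The spread behind each p-value is that of these 13 samples, and differences between animals and technical differences cannot be told apart in it. In bulk tissue, fewer cells of a type and less RNA per cell cannot be told apart.

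The AMPA receptor subunits are near relatives, and their reference sequence shows both how alike they are and what the counts leave out. The codon printed in capitals lies in the pore-lining loop. In Gria2 this codon is read as arginine after RNA editing of its middle adenosine, which makes receptors that hold GluA2 nearly impermeable to calcium. The deposited counts do not separate edited from unedited transcripts. Each stretch is 51 coding bases from GENCODE M21 on GRCm38, written 5′ to 3′ along the transcript, and each spans an intron: Gria1 chr11:57243070-57283510 (plus strand, exons 11 and 12), Gria2 chr3:80702656-80706937 (minus strand, exons 11 and 12, codon 607), Gria3 chrX:41610241-41620797 (plus strand, exons 11 and 12) and Gria4 chr9:4462104-4464163 (minus strand, exons 12 and 13).
Gria1: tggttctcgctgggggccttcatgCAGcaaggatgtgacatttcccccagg
Gria2: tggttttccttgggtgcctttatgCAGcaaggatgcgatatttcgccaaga
Gria3: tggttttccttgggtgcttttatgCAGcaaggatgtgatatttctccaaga
Gria4: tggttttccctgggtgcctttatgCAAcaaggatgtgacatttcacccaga
Any pair of the 4 is equal at 41 to 48 of the 51 bases, and 39 bases are equal in all 4.

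Across 60 pairs of paralogs among the members, the longest exact coding run shared by a pair was 41 bases, between Gria2 and Gria4. Read length and the treatment of reads that match more than 1 gene are not stated in the labels, so a small exchange of counts between paralogs was not tested.

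Levels of different genes were compared per length, as FPKM, which the authors scaled to gene length and library size. Camk2a, the alpha subunit of CaMKII and a leading transcript of excitatory neurons, was the highest member at 453 ± 38.7 FPKM (SD over the 13 libraries). Cnih2, an auxiliary protein that slows AMPA receptor closing, followed at 257 ± 23.3 FPKM, Gria1 at 135 ± 12.1 FPKM and Camk2b at 118 ± 11.4 FPKM. Dlg4, which encodes PSD-95, Grik5, Gria2 and Grin1 formed a close group at 49.9, 48.8, 48.8 and 45.6 FPKM. At the low end stood Grin3a at 2.93 FPKM, Grm4 at 1.72 FPKM, Grik1 at 1.45 FPKM and Grm8 at 0.492 FPKM. In this order 30 of the 37 genes overlapped the next lower gene in their range over libraries. Only the breaks after Camk2a, Cnih2, Camk2b, Shank1, Dlg3 and Grik1 left no overlap between the ranges of neighbours. The order of neighbours within single libraries was not compared.

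**Figure D1:**
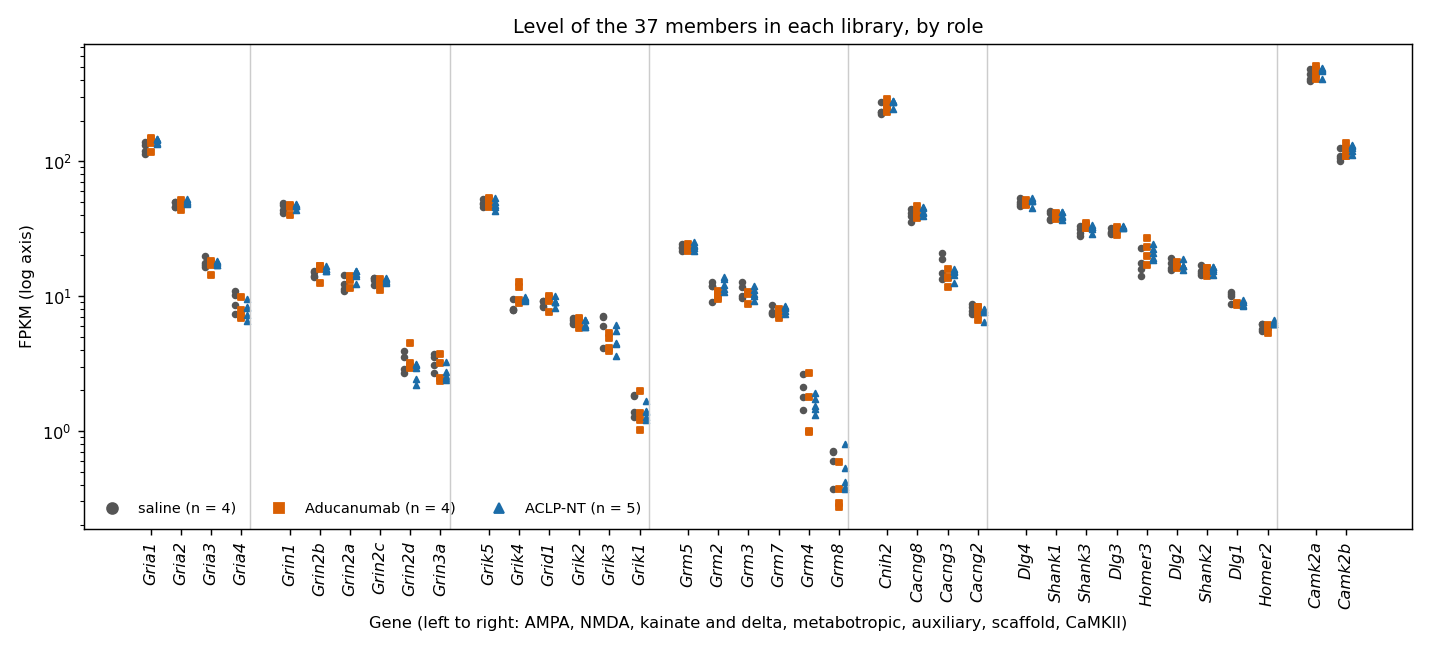
FPKM of the 37 members in each of the 13 libraries, on a log axis, grouped by role and ordered by mean level within a role. Points are libraries, with saline (n = 4), Aducanumab (n = 4) and ACLP-NT (n = 5) side by side. Levels run from 0.492 FPKM for Grm8 to 453 FPKM for Camk2a, while the 3 groups lie close together for each gene.

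Within each role 1 gene held a steady share of the summed FPKM. Gria1 made up 59.7% to 67.1% of the AMPA receptor subunits in a library, ahead of Gria2, Gria3 (17.4 FPKM) and Gria4 (8.33 FPKM). Grin1 made up 48.1% to 51.3% of the NMDA receptor subunits, with Grin2b at 15.3 FPKM, Grin2a at 13.3 FPKM and Grin2c, which is best known from cerebellar granule cells and astrocytes, at 12.9 FPKM. Grin2d, prominent in interneurons, stood at 3.12 FPKM. Grik5, a high-affinity kainate subunit, made up 57.8% to 62.3% of the kainate and delta subunits, followed by Grik4 (9.51 FPKM), Grid1 (8.99 FPKM), Grik2 (6.37 FPKM) and Grik3 (5.12 FPKM).

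Among the metabotropic receptors Grm5, which couples to Gq and is bound by Homer proteins, made up 38.4% to 45.3%, ahead of Grm2 (11.4 FPKM), Grm3 (10.5 FPKM) and Grm7 (7.77 FPKM), which couple to Gi. Cnih2 made up 77.2% to 81.6% of the auxiliary subunits, ahead of the transmembrane regulators Cacng8 (41.5 FPKM), Cacng3 (15.1 FPKM) and Cacng2 (7.72 FPKM). The scaffold was the most even role. Dlg4 held 21.5% to 24.0% of it, followed by Shank1 (39.7 FPKM), Shank3 (31.7 FPKM), Dlg3 (31.2 FPKM), Homer3 (20.2 FPKM), Dlg2 (17.0 FPKM), Shank2 (15.5 FPKM), Dlg1 (9.14 FPKM) and Homer2 (6.05 FPKM).

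Between libraries the members varied little. Their median coefficient of variation over the 13 libraries was 8.66% in CPM, against 14.7% over all 22065 genes tested, a group that also holds many genes with low counts. Grm5 (5.27%), Dlg3 (5.46%), Dlg4 (5.72%), Grin2c (5.75%) and Gria2 (5.81%) were the steadiest. Grm8 (34.0%), Grm4 (30.8%), Grik3 (22.3%), Grik1 (19.95%) and Grin2d (19.1%) varied most, and all 5 lie among the 6 members with the lowest FPKM.

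**Figure D2:**
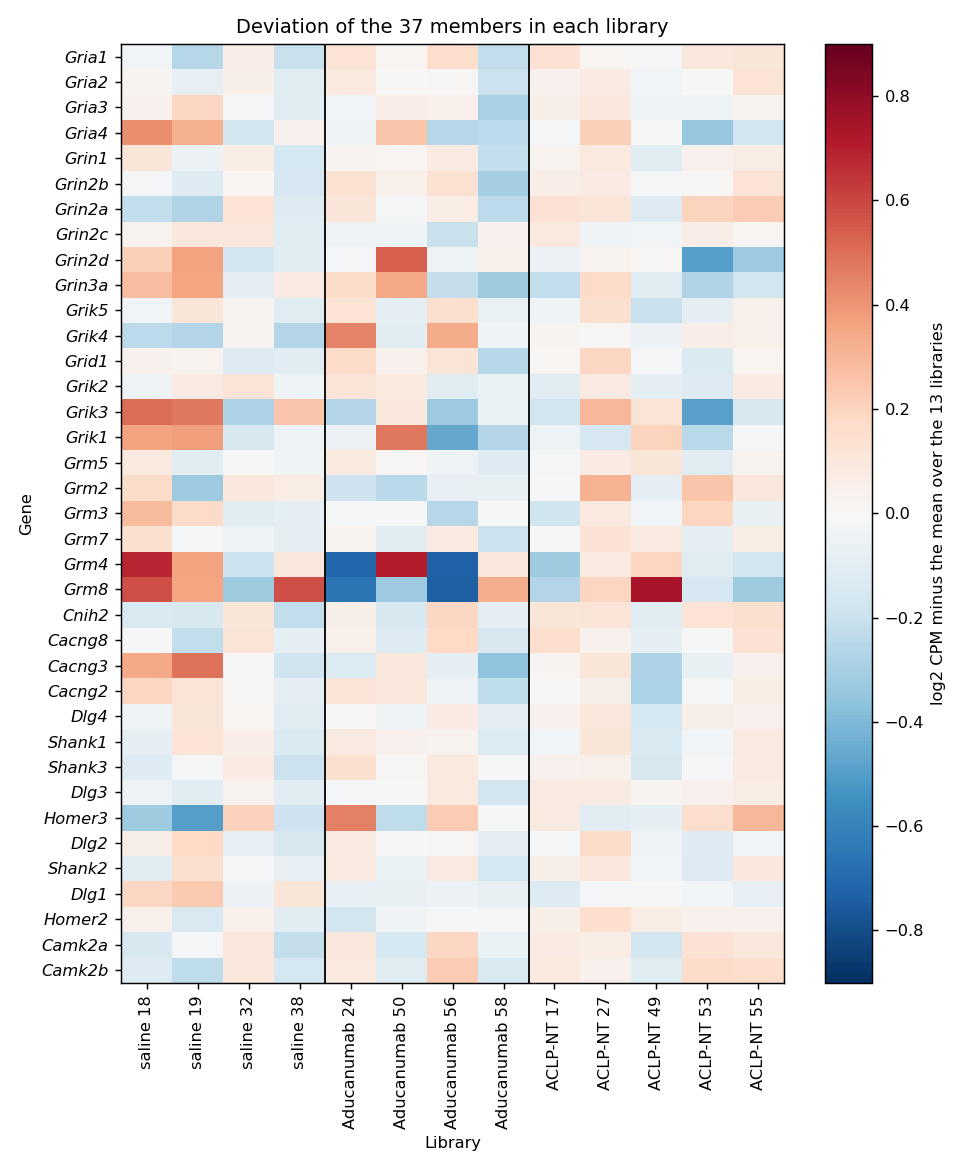
Deviation of each member from its own mean over the 13 libraries, as log2 CPM, with genes in rows by role and libraries in columns by treatment. Saline 18, saline 19 and Aducanumab 50 are the 3 highest libraries for Gria4, Grin2d, Grin3a, Grik1 and Grm4, and no treatment forms a block of its own.

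ACLP-NT against saline asks whether the agent, tied in the title of the series to microglial lysosomes, was accompanied by altered receptor or scaffold transcripts. No member passed the test: 0 of 37 had an adjusted p under 0.05 in edgeR's quasi-likelihood test with Benjamini-Hochberg adjustment, and the background over all genes was 0% called as well. DESeq2 and limma, run as alternatives, also called 0 members in each of the 3 comparisons. At an unadjusted p under 0.05 stood 3 members higher (Grin2a, Dlg3 and Cnih2), where 2.46% of all genes tested were, and 1 lower (Dlg1), where 3.43% were. In total these are 10.8% of the members against 5.88% of all genes (1298 of 22065). The members' median log2 fold change was 0.027, against -0.0015 over all genes, with a range of -0.33 to 0.25 and 17 of 37 within 0.1 of no change. No member separated all ACLP-NT libraries from all saline libraries, where 0.925% of all genes did so upward and 1.33% downward.

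Dlg1, which encodes the scaffold protein SAP97, had the smallest p. Its level was 120.2, 125, 102 and 114 CPM in saline 18, 19, 32 and 38, and 97.5, 105, 106, 104 and 100.1 CPM in ACLP-NT 17, 27, 49, 53 and 55. Saline 18, 19 and 38 lay above every treated library and saline 32 lay among them. The means were 115 ± 9.98 CPM (SD, n = 4) and 103 ± 3.57 CPM (SD, n = 5). The log2 fold change was -0.17 (SE 0.0511, 95% interval -0.275 to -0.0558, adjusted p = 0.746 in edgeR).

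Grin2a, the NMDA subunit that gains weight over Grin2b as synapses mature, was at 219, 212, 279 and 236 CPM in saline and 280.5, 277, 236, 294 and 299.8 CPM in ACLP-NT, in the animal order given above. Saline 32 lay within the range of the treated libraries and ACLP-NT 49 at the level of saline 38. The log2 fold change was 0.23 (SE 0.0918, adjusted p = 0.788). Dlg3, which encodes SAP102, had 189.8, 183, 201 and 183 CPM in saline and 208, 207, 199.8, 202 and 205 CPM in the treated group. Its log2 fold change was 0.11 (SE 0.0471, adjusted p = 0.797). Only saline 32 reached into the range of the ACLP-NT libraries. Cnih2 was at 344, 342, 407 and 324 CPM in saline and 408, 409, 352, 412 and 417 CPM in ACLP-NT, with a log2 fold change of 0.17 (adjusted p = 0.837), and ACLP-NT 49 stood below saline 32.

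The count of members at an unadjusted p under 0.05 moved with single libraries. It was 12 without saline 32, 8 without Aducanumab 58, 2 without ACLP-NT 17 or ACLP-NT 53 and 1 without saline 19 or ACLP-NT 55. The share of all genes at that p was not counted in these fits. Whether the shifts are particular to the members therefore cannot be read from them.

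None of the main subunits of the receptors and the kinase passed the test. Gria1 was at 861, 733, 914 and 765 CPM in saline and 960.4, 889, 872, 941 and 946 CPM in ACLP-NT, with a log2 fold change of 0.17 (SE 0.0805, adjusted p = 0.839). Gria2, which sets calcium permeability, had a log2 fold change of 0.071 (SE 0.058, adjusted p = 0.939). Grin1 was at 514, 459, 499 and 428 CPM in saline and 487, 506, 447, 489 and 499 CPM in the treated group, and differed by 0.033 on the log2 scale (SE 0.067, adjusted p = 0.977). The ACLP-NT libraries lay within the saline range of Grin1, while for Gria1 only saline 18 and 32 reached the ACLP-NT values or came near them. Grin2b, the subunit that carries much of the CaMKII binding, had a log2 fold change of 0.12 (SE 0.0772, adjusted p = 0.912). In a fit with the score of choroid plexus markers (their mean centred log2 CPM in each library) as covariate, the log2 fold change was 0.22 for Gria1, 0.12 for Gria2, 0.087 for Grin1 and 0.17 for Grin2b, and 7 members were at an unadjusted p under 0.05 in place of 4. How many of all genes were at that p in this fit was not counted.

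Grm5 was at 269.9, 237, 255 and 247 CPM in saline and 250.3, 268, 274, 238 and 260.1 CPM in ACLP-NT, and its log2 fold change was 0.033 (SE 0.0532, adjusted p = 0.975). Dlg4 was at 694, 768, 721 and 659.9 CPM against 731, 765, 636, 739.8 and 730.4 CPM, a log2 fold change of 0.020 (SE 0.0599, adjusted p = 0.984). For both genes the 2 groups overlapped throughout. Shank3, which links the receptor complexes to actin, had a log2 fold change of 0.065 (SE 0.0594, adjusted p = 0.948). Camk2a was at 3282, 3584, 3892 and 3119.6 CPM in saline and 3823, 3808, 3231, 3968 and 3884 CPM in ACLP-NT, with a log2 fold change of 0.11 (SE 0.0879, adjusted p = 0.934). ACLP-NT 49 lay among the saline libraries and the other treated libraries lay near saline 32. Camk2b, the beta subunit that ties the kinase to actin, had a log2 fold change of 0.17 (SE 0.0872, adjusted p = 0.854).

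Grik5 was at 267, 292, 276 and 252 CPM in saline, 296, 256, 299 and 260.1 CPM in Aducanumab and 266, 299, 236, 255 and 280.4 CPM in ACLP-NT. The 3 groups overlapped throughout, and its log2 fold change was -0.024 in ACLP-NT and 0.031 in Aducanumab against saline.

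**Figure D3:**
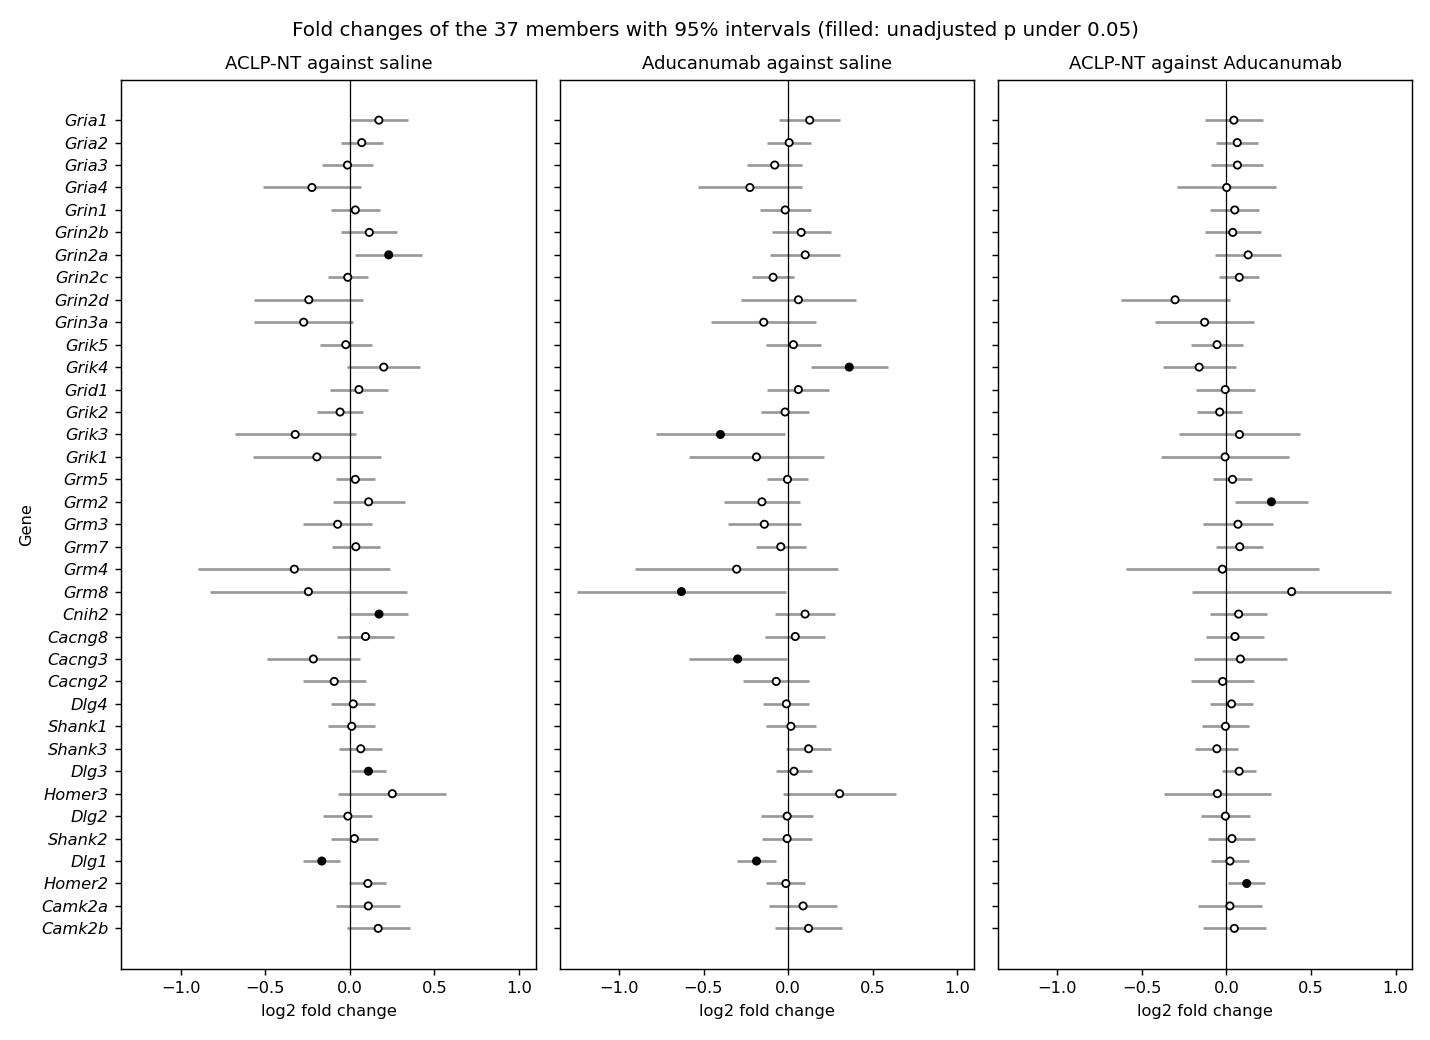
Log2 fold change of each of the 37 members with its 95% interval in the 3 comparisons, one panel each; filled points have an unadjusted p under 0.05. Filled are 4, 5 and 2 members, none has an adjusted p under 0.05, and most points lie within 0.3 of no change.

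Aducanumab against saline asks the same of the antibody. Again 0 of 37 members had an adjusted p under 0.05, with 0% of all genes called. At an unadjusted p under 0.05 stood 1 member higher (Grik4), where 2.07% of all genes were, and 4 lower (Dlg1, Grik3, Cacng3 and Grm8), where 2.62% were. In total these are 13.5% of the members against 4.68% of all genes (1033 of 22065). The median log2 fold change was -0.0057, against 0.0036 over all genes, with a range of -0.63 to 0.36 and 20 of 37 members within 0.1. No member separated the groups, where 1.16% of all genes did so upward and 1.41% downward. Both treated groups were compared with the same 4 saline libraries, so values that recur in both are not independent.

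Dlg1 was at 100.5, 101, 102 and 100.6 CPM in Aducanumab 24, 50, 56 and 58. Saline 32, at 102 CPM, fell inside this narrow range and the other saline libraries above it, and the log2 fold change was -0.19 (SE 0.054, adjusted p = 0.938). Grik4, a high-affinity kainate subunit known from CA3 pyramidal cells, was at 51.4, 50.4, 61.5 and 50.4 CPM in saline, 82.7, 56.8, 76.3 and 58.8 CPM in Aducanumab and 61.7, 61.1, 58.4, 63.2 and 62.6 CPM in ACLP-NT. Aducanumab 24 and 56 were the 2 highest libraries of all, while Aducanumab 50 and 58 lay below saline 32. The log2 fold change was 0.36 (SE 0.106, adjusted p = 0.938).

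Grik3, another kainate subunit, was at 68.5, 67.4, 39.9 and 57.4 CPM in saline, 40.2, 51.5, 38.6 and 46.4 CPM in Aducanumab and 42.9, 59.5, 52.4, 34.5 and 43.8 CPM in ACLP-NT. Here too saline 32 lay with the treated libraries. The log2 fold change in Aducanumab was -0.40 (SE 0.177). For Cacng3 the saline mean was 50.8 ± 10.6 CPM and the Aducanumab mean 41.3 ± 5.28 CPM (SD, n = 4 each), a log2 fold change of -0.30 (SE 0.135). Grm8, a presynaptic receptor, averaged 6.36 ± 1.65 and 4.11 ± 1.51 CPM (SD, n = 4 each), a log2 fold change of -0.63 (SE 0.288). Beside Dlg1 and Grik4, every member had an adjusted p of 1 in this comparison. The count of members at an unadjusted p under 0.05 was 9 without saline 32, 8 without Aducanumab 50, 3 without saline 19 and 2 without saline 18, Aducanumab 24 or Aducanumab 56. Here too the share of all genes in these fits was not counted.

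**Figure D4:**
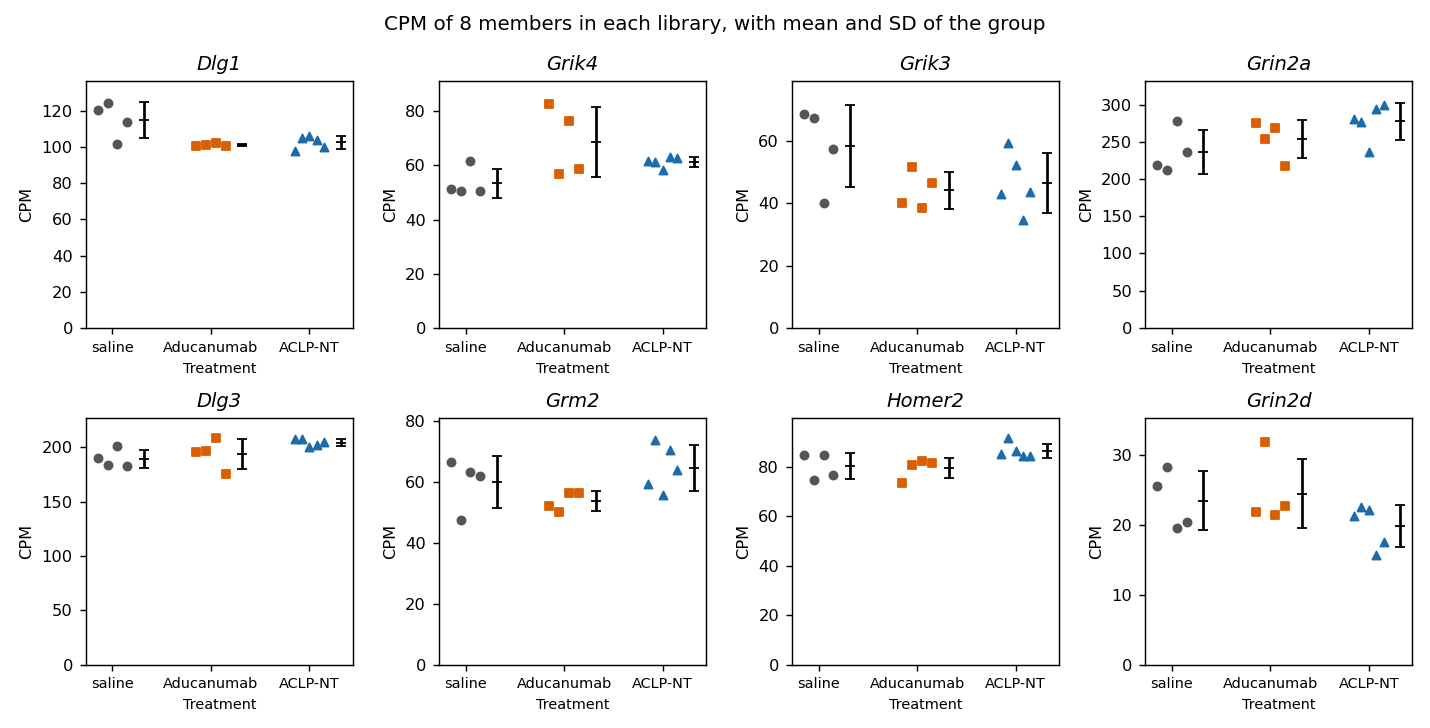
CPM of the 8 members that had 1 of the 3 smallest p in at least 1 comparison, one panel a gene, each axis starting at 0. Points are libraries and the bar beside them is the group mean ± SD. Saline 32 lies with the treated libraries for Dlg1, Grik4 and Grik3, and only Homer2 separates 2 groups, ACLP-NT above Aducanumab.

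None of the main subunits passed the test here either. Gria1 was at 955, 887, 981 and 752 CPM in Aducanumab 24, 50, 56 and 58, with a log2 fold change of 0.13 (SE 0.0846). Gria2 had 0.0064 (SE 0.0611), and Grin1, at 485, 482, 501 and 409 CPM, had -0.017 (SE 0.0706). Aducanumab 58 was the lowest of the 13 libraries for Grin1 and Gria2. Grin2a was at 276, 254, 268 and 217 CPM. Its log2 fold change was 0.10 (SE 0.0964), that of Grin2b 0.078 (SE 0.0812).

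Grm5 was at 269.8, 256, 246 and 235 CPM (log2 fold change -0.0036, SE 0.0561). Dlg4 was at 715, 689, 749 and 669 CPM (log2 fold change -0.010, SE 0.0632). Both lay inside or at the edge of the saline range. Cnih2 was at 391, 342, 430.4 and 355 CPM and Dlg3 at 195, 197, 209 and 175 CPM, without a separation from saline. The log2 fold change of Shank3 was 0.12 (SE 0.0625), of Camk2b 0.12 (SE 0.0917) and of Camk2a 0.089 (SE 0.0925), with Camk2a at 3896, 3247, 4126 and 3487 CPM. All 6 metabotropic receptors had a log2 fold change below 0 in this comparison, from -0.63 for Grm8 to -0.0036 for Grm5.

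ACLP-NT against Aducanumab compares the agents with each other. The count of members with an adjusted p under 0.05 was 0 of 37, beside 0% of all genes. At an unadjusted p under 0.05 stood 2 members higher in ACLP-NT (Grm2 and Homer2), where 1.53% of all genes were, and 0 lower, where 1.71% were. The members' median was 0.036 against -0.0064 over all genes, with a range of -0.30 to 0.39 and 30 of 37 within 0.1. One member, Homer2, separated the groups upward, where 0.693% of all genes did, and 0 downward, where 0.644% did.

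Homer2, an adaptor that ties metabotropic receptors to the Shank layer, was at 84.8, 74.7, 84.9 and 76.5 CPM in saline, 73.4, 80.6, 82.4 and 81.7 CPM in Aducanumab and 85.3, 91.5, 86.3, 84.5 and 84.4 CPM in ACLP-NT. Every ACLP-NT library lay above every Aducanumab library, and 2 saline libraries lay among the ACLP-NT values. Their log2 difference was 0.12 (SE 0.0507). Grm2, a presynaptic receptor of mossy fibres, was at 66.7, 47.4, 63.4 and 62.1 CPM in saline, 52.1, 50.1, 56.5 and 56.6 CPM in Aducanumab and 59.5, 73.9, 55.8, 70.7 and 63.9 CPM in ACLP-NT. ACLP-NT 49 lay within the Aducanumab range and the other 4 above it (log2 fold change 0.27, SE 0.0997). Grin2d was at 25.6, 28.3, 19.5 and 20.5 CPM in saline, 21.9, 31.9, 21.4 and 22.7 CPM in Aducanumab and 21.2, 22.5, 22.2, 15.6 and 17.6 CPM in ACLP-NT. For Grin2d the log2 fold change was -0.30 (SE 0.15), and -0.15 without Aducanumab 50.

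For all 37 members in this comparison the adjusted p was 1. The fixed set lay close to 0: the log2 fold change was 0.044 for Gria1 (SE 0.0803), 0.064 for Gria2 (SE 0.058) and 0.050 for Grin1 (SE 0.0671). It was 0.13 for Grin2a (SE 0.0916), 0.038 for Grin2b (SE 0.0771) and 0.036 for Grm5 (SE 0.0532). Among scaffold and kinase genes it was 0.030 for Dlg4 (SE 0.0599), -0.056 for Shank3 (SE 0.0593), 0.021 for Camk2a (SE 0.0878) and 0.047 for Camk2b (SE 0.087). The intervals of Gria2, Grin1, Grm5, Dlg4 and Shank3 all lay between -0.184 and 0.194, so larger differences of these genes lay outside their 95% intervals. The count of members at an unadjusted p under 0.05 was 4 without Aducanumab 56 or Aducanumab 58 and 1 without Aducanumab 24, with the share of all genes in these fits not counted.

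Ratios of 2 members within a library do not depend on library scaling, and 4 were compared in the 3 comparisons by exact two-sided permutation tests. The linear FPKM ratio of Gria1 to Gria2 was 2.67, 2.44, 2.78 and 2.61 in saline, 2.84, 2.81, 3.07 and 2.71 in Aducanumab and 2.94, 2.66, 2.80, 2.97 and 2.75 in ACLP-NT. Most treated libraries lay above most saline libraries, with overlap in both comparisons. On the log2 scale the difference from saline was 0.12 (SE 0.0552) in Aducanumab, where the exact permutation p was 0.0571 and the smallest it allows is 0.0286, and 0.11 (SE 0.05) in ACLP-NT, where the exact permutation p was 0.0635 and the smallest it allows is 0.00794. Both had p = 0.381 after adjustment over the 12 exact permutation tests. For Grin2a to Grin2b the mean ratio was 0.837 ± 0.0872 (SD, n = 4) in saline, 0.855 ± 0.0373 (SD, n = 4) in Aducanumab and 0.907 ± 0.0647 (SD, n = 5) in ACLP-NT. Camk2a to Camk2b averaged 3.94 ± 0.35, 3.84 ± 0.158 and 3.77 ± 0.0953, and Grm3 to Grm5 averaged 0.484 ± 0.0613, 0.441 ± 0.0419 and 0.452 ± 0.0611, in the same order of groups. The 10 exact permutation tests other than those of Gria1 to Gria2 against saline gave p from 0.19 to 0.8.

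Other genes of the postsynapse, 46 chosen by function with 45 tested (Grm6 had 0 to 4 counts), gave 0 calls at an adjusted p under 0.05 in every comparison. At an unadjusted p under 0.05, 3 were higher and 1 lower in ACLP-NT against saline, where 2.46% and 3.43% of all genes were. In Aducanumab against saline 1 was higher and 2 lower, where 2.07% and 2.62% of all genes were, and in ACLP-NT against Aducanumab 2 were higher and 0 lower, where 1.53% and 1.71% were. Their medians were 0.022, -0.0060 and 0.027 on the log2 scale. Camk2g, the gamma subunit of CaMKII, had a log2 fold change of -0.16 against saline in both treated groups (SE 0.0579, adjusted p = 0.772, and SE 0.0612, adjusted p = 1). Gsg1l, an AMPA receptor auxiliary protein, had -0.72 (SE 0.202, adjusted p = 0.938) in Aducanumab against saline and 0.37 (SE 0.192) in ACLP-NT against Aducanumab. Shisa7 had 0.15 (SE 0.0671, adjusted p = 0.805) in ACLP-NT against saline, while Lrrtm4 had 0.19 (SE 0.0888) and Baiap2 0.12 (SE 0.0554) in ACLP-NT against Aducanumab.

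The variable members moved across libraries with markers of brain regions and cell types. For each library a marker score was taken as the mean centred log2 CPM of a marker list, and the 37 members were related to 4 such scores over 13 libraries (148 relations, 100000 permutations each, adjusted over all of them). The score of the 7 interneuron markers (Gad1, Gad2, Slc32a1, Sst, Pvalb, Vip and Lhx6) moved with Gria4, the AMPA subunit known from fast-spiking interneurons. Pearson r was 0.910 (permutation p = 0.00004, adjusted p = 0.00197) and Spearman rho was 0.923 (permutation p = 0.00005, adjusted p = 0.0037). The relation of each single marker to Gria4 was not tested. Gria4 was at 74.7, 69.7, 50.0 and 57.3 CPM in saline, 54.4, 66.4, 47.0 and 47.4 CPM in Aducanumab and 55.2, 64.9, 55.7, 44.1 and 49.6 CPM in ACLP-NT. Saline 18, saline 19 and Aducanumab 50 were highest in Gria4 and in the score. In Aducanumab 58, with a score of -0.188, the interneuron markers went apart. Gad2 was at 145 CPM and Slc32a1 at 64.3 CPM there, where the highest libraries had 148 and 69.4 CPM. Sst at 73.0, Pvalb at 10.1, Vip at 7.56 and Lhx6 at 10.4 CPM were each the lowest of any library. Aducanumab 50 also stood apart in thalamus markers, all 7 of them detected, with a score of 1.60 where no other library was above 0.256. Their summed level was 91.85 to 113.9 CPM in saline, 79.84 to 235.1 CPM in Aducanumab and 86.94 to 129.1 CPM in ACLP-NT, and the part of this shift in the values of Gria4, Grik1 and Grin2d was not tested. Without the 2 libraries farthest from the median score r was 0.887, and with group means removed it was 0.941.

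Grik1, a kainate subunit of interneurons, followed the same score (r = 0.858, permutation p = 0.00017, adjusted p = 0.00503; rho = 0.824, permutation p = 0.00101, adjusted p = 0.0149; r = 0.752 without the 2 farthest libraries). Grin2d did so too (r = 0.789, permutation p = 0.00039, adjusted p = 0.00641; rho = 0.703, permutation p = 0.00917, adjusted p = 0.0676), with r = 0.612 without Aducanumab 50 and saline 19 and 0.977 with group means removed. By Pearson's r, 6 members rose with the interneuron score at an adjusted p under 0.05 (Gria4, Grin2d, Grin3a, Grik1, Grik3 and Grm4) and 1, Homer3, fell with it. The weakest relation called for any member had r at 0.704 from 0, and of all 22065 genes 1.88% lay at least that far above 0 with this score and 0.739% that far below.

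**Figure D5:**
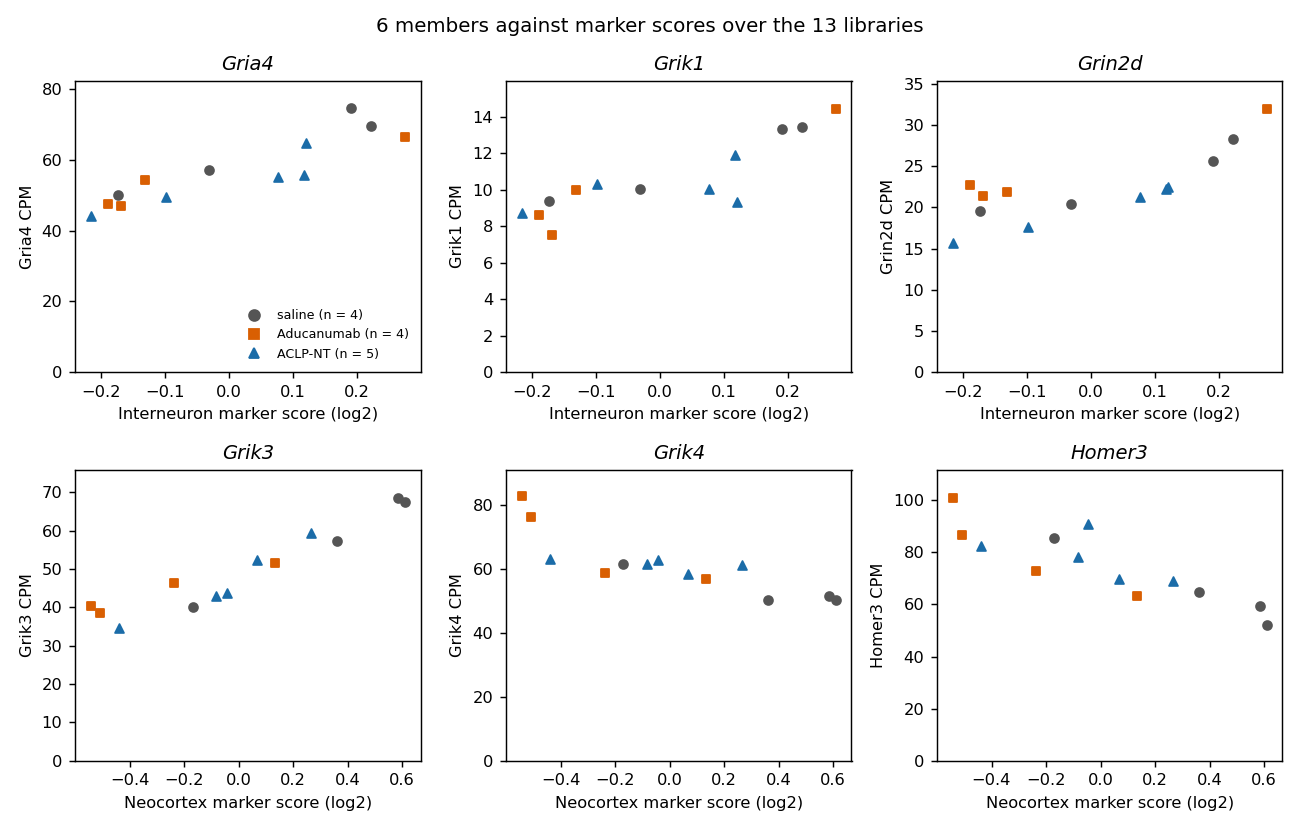
CPM of 6 members against marker scores over the 13 libraries; the upper row has the interneuron score, the lower row the neocortex score, each as mean centred log2 CPM of the markers. Points are libraries, coloured by treatment. Gria4, Grik1, Grin2d and Grik3 rise with their score, Grik4 and Homer3 fall, and 3 of the 4 saline libraries lie at the high end of the neocortex score.

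The neocortex markers (Tbr1, Rspo1, Tshz2, Cplx3, Lamp5, Cux2, Rorb and Fezf2) had 0 of 8 genes called in every comparison. All 8 had a log2 fold change below 0 against the same saline libraries in both treated groups, with 1 of 8 at an unadjusted p under 0.05 in ACLP-NT and 5 of 8 in Aducanumab, and none of the 8 was at 0 in any library. Their summed level was 164.7 to 277 CPM in saline, 136 to 183 CPM in Aducanumab and 146 to 204 CPM in ACLP-NT, so the ranges overlapped. Saline 32 had a score of -0.17 and the other saline libraries 0.36 to 0.61. Some of these genes are also expressed within the hippocampal formation. Grik3 rose with this score (r = 0.946, permutation p = 0.00001, the smallest that 100000 permutations can give, adjusted p = 0.00148; rho = 0.907, permutation p = 0.00007, adjusted p = 0.0037), with r = 0.897 without saline 18 and 19. Grik4 fell with it (r = -0.873, permutation p = 0.00012, adjusted p = 0.00444; rho = -0.890, permutation p = 0.00013, adjusted p = 0.00385; r = -0.826 without these libraries). Homer3, the Homer protein that stands apart from its relatives by high levels in cerebellar Purkinje cells, fell with it as well (r = -0.884, permutation p = 0.00004, adjusted p = 0.00197; rho = -0.874, permutation p = 0.0002, adjusted p = 0.00493; r = -0.795 without these libraries).

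By Pearson's r at an adjusted p under 0.05, 6 members rose with the neocortex score (Gria4, Grik1, Grik3, Grm4, Grm8 and Dlg1) and 3 fell with it (Grik4, Homer3 and Camk2b), where 1.82% of all genes had an r of at least 0.704 with this score and 1.01% one at least that far below 0. Dlg1, which had the smallest p against saline in both treated groups, rose with the neocortex score (r = 0.786, permutation p = 0.00098, adjusted p = 0.0132; rho = 0.654, permutation p = 0.019, adjusted p = 0.0836). Without saline 18 and 19 its r was 0.529, so the relation rests in part on those libraries. With group means removed the r of Dlg1 was 0.614. In a fit with the score as covariate, the log2 fold change of Dlg1 in Aducanumab against saline was -0.087 in place of -0.19, that of Grik4 0.089 in place of 0.36, that of Cacng3 -0.081 in place of -0.30 and that of Grm8 -0.034 in place of -0.63. Grik3 changed sign, from -0.40 to 0.21, and Homer3 went from 0.30 to -0.15. Grin2d went from 0.061 to 0.51. In ACLP-NT against saline the fold change of Dlg1 was -0.10 with the covariate and -0.17 without it, and that of Grin2a 0.11 and 0.23. With the score in the fit, 0 members were at an unadjusted p under 0.05 in ACLP-NT against saline in place of 4. In Aducanumab against saline they were 2 in place of 5, Grin2d and the reversed Grik3, and in ACLP-NT against Aducanumab 6 in place of 2, of them 3 higher and 3 lower. How many of all genes were at that p with the score in the fit was not counted. The neocortex score itself differed by group. No treated library was above 0.27, while saline 18, 19 and 38 were at 0.36 to 0.61. Treatment and tissue composition therefore cannot be told apart in these fits, and the part of composition was not tested beyond them.

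Dentate gyrus markers summed to 205.7 to 302 CPM in saline, 255 to 316 CPM in Aducanumab and 263 to 372 CPM in ACLP-NT, and all 5 had a log2 fold change above 0 in both treated groups against the same saline libraries. Their median log2 fold change was 0.437 in ACLP-NT and 0.103 in Aducanumab. Higher at an unadjusted p under 0.05 were 4 of the 5 in ACLP-NT and 1 of the 5 in Aducanumab, where 2.46% and 2.07% of all genes were. At an adjusted p under 0.05, 0 of these markers were called. With this score Grin2a (r = 0.714, permutation p = 0.00547, adjusted p = 0.0368; rho = 0.659, permutation p = 0.0169, adjusted p = 0.0835) and Cnih2 (r = 0.704, permutation p = 0.00657, adjusted p = 0.0398; rho = 0.824, permutation p = 0.00087, adjusted p = 0.0149) rose, as did Camk2b. Without saline 19 and ACLP-NT 53 the r was 0.534 for Grin2a and 0.682 for Cnih2. With group means removed it was 0.551 and 0.56. The permutations ran over all 13 libraries without regard to group. Gria4, Grin2d, Grin3a, Grik1 and Grik3 fell with it. These are 3 members up and 5 down, where 1.45% and 1.92% of all genes had an r at least 0.704 from 0. The score of the excitatory neuron markers was not among those related to the members. It was 0.22 in ACLP-NT 55, 0.20 in Aducanumab 56 and -0.28 in saline 19. ACLP-NT 55 was also the highest library for Grin2a, Aducanumab 56 for Camk2b, and saline 19 was the lowest for both. The part of excitatory neuron content in these relations was not tested. The scores are not independent of each other: interneuron and neocortex scores had r = 0.791, interneuron and dentate gyrus scores r = -0.714, and neocortex and dentate gyrus scores r = -0.665, as descriptions over the same 13 libraries. With the choroid plexus score 1 of the 37 members, Cacng2, was related (r = -0.725, permutation p = 0.00417, adjusted p = 0.0343; rho = -0.824, permutation p = 0.00093, adjusted p = 0.0149; r = -0.653 without saline 18 and ACLP-NT 55), where 0.793% of all genes had an r at least 0.704 below 0. Microglia markers summed to 803 to 1002 CPM in saline, 676 to 830.3 CPM in Aducanumab and 567 to 824 CPM in ACLP-NT. Lower at an unadjusted p under 0.05 against saline were 5 of 5 in ACLP-NT and 3 of 5 in Aducanumab, where 3.43% and 2.62% of all genes were. At an adjusted p under 0.05, 0 of the microglia markers were called, and their part in the members' values was not tested.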

How the data were processed

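Poly(A) RNA libraries from 13 hippocampi were analysed. The deposited table gives raw read counts per gene, which the authors did not normalize, and FPKM values, which the authors scaled to gene length and library total, per the file headers. Per the submitters' processing notes, cutadapt 1.9, HISAT2 2.0.4, StringTie 1.3.4d and edgeR were used; the counter, genome build and annotation are not stated there. Only 1 of the 37 members had equal start and end in GRCm38, so the table's coordinates are not printed, and sequences come from GENCODE M21.

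From the counts, 22065 genes kept by filterByExpr entered a TMM-scaled fit in edgeR 4.0.16 (R 4.3.3; quasi-likelihood test, two-sided, 3 groups in 1 fit, Benjamini-Hochberg over all genes tested, threshold 0.05; common biological coefficient of variation 0.226). CPM are TMM-scaled. Standard errors were obtained as |log2 fold change| over the root of the F statistic, and intervals are at 95%. Centred log2 CPM used a prior count of 2. Alternatives were DESeq2 1.42.0, limma 3.58.1 on log2(FPKM + 1) and log2(FPKM + 0.1), other scaling and filters, a robust fit, the 2 groups alone, choroid plexus or neocortex scores as covariates, and each library left out. Libraries of a group differed by more than counting error (lowest chi-square per df 13.1), and each was kept as its own sample.

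Tested on simulated counts for the 22065 genes, the fit recovered, of genes changed 1.25-fold, 1.5-fold and 2-fold, 4.48%, 47.8% and 56.1% in ACLP-NT against saline, 5.97%, 34.3% and 42.4% in Aducanumab against saline, and 10.4%, 41.8% and 60.6% in ACLP-NT against Aducanumab. The changed genes were drawn at random from all genes tested, so these shares are not those of the members. Recovery among the members alone was not tested.

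Members, lists and the relations to marker scores were chosen with earlier results of these data known. Values in every library are given for the member of highest FPKM in each role and the 3 smallest p per comparison; fold changes are given for those 3 and for Gria1, Gria2, Grin1, Grin2a, Grin2b, Grm5, Dlg4, Shank3, Camk2a and Camk2b. The values of Gria4, Grik1, Cacng3, Grm8 and Homer3 and the fold change of Cnih2 fall outside this rule and were chosen after their values were seen. The other postsynaptic genes named are among the 3 of their list with the smallest p in a comparison. Some items that the rule names are not reported here.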

Additional observations from a re-analysis of the deposited data

Results flagged for a closer look

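Within each treatment group, the highest or lowest library of each member was compared with the rest by Dixon's criterion, and 8 of 111 groups had a library that stood apart. Chance gives about 1 in 20 such groups. ACLP-NT 49 was low for 4 members: Camk2a at 3231 CPM, where the other ACLP-NT libraries had 3808 to 3968 CPM, Dlg4 at 636 CPM (730.4 to 765), Cnih2 at 352 CPM (408 to 417) and Cacng2 at 37.5 CPM (45.4 to 47.8). ACLP-NT 27 was high for Homer2 at 91.5 CPM (84.4 to 86.3). In Aducanumab, library 50 was high for Grin2d at 31.9 CPM (21.4 to 22.7) and library 56 was low for Grm3 at 28.8 CPM (34.2 to 34.4). Aducanumab 50 also had a thalamus marker score of 1.60, where the other 12 libraries had at most 0.256, and the part of this in its Grin2d level was not tested. In saline, library 32 was high for Grik4 at 61.5 CPM (50.4 to 51.4).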

How the results depend on the processing

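No member was called under any alternative. Over all genes, the counts called in ACLP-NT against saline, Aducanumab against saline and ACLP-NT against Aducanumab were 0 with edgeR (1298, 1033 and 716 at an unadjusted p under 0.05), 9, 16 and 3 with DESeq2 (1420, 1106 and 757), and 0 to 1 in each with a library left out; limma on log2(FPKM + 1) gave 0 in each (1452, 1154 and 846). DESeq2 gave members a smallest adjusted p of 0.286 (Dlg1), 0.255 (Grik4) and 1. Members at an unadjusted p under 0.05 numbered 0 to 8, 2 to 6 and 1 to 6 over the other settings. Where no count over all genes is given above, the share of all genes was not counted. Of 912 fold changes under alternatives, for the genes and comparisons the naming rule covers, 878 kept their direction and 34 reversed, and of 128 ratios 7 reversed; the cause was not tested. Over all 37 members, the neocortex score as covariate reversed 11, 18 and 4 fold changes in the 3 comparisons and the choroid plexus score 3, 6 and 3. Among the named genes these were, with the neocortex score, Camk2a at -0.0038 in ACLP-NT against saline and, in Aducanumab against saline, Grik3 at 0.21, Gria1 at -0.015, Gria2 at -0.032, Grin2a at -0.095, Grm5 at 0.031, Camk2a at -0.10 and Camk2b at -0.10. With the choroid plexus score they were Grin1 at 0.028, Grm5 at 0.022 and Dlg4 at 0.00015 in Aducanumab against saline. With single libraries left out, Grin1 ran from -0.013 to 0.073 and Dlg4 from -0.012 to 0.065 in ACLP-NT against saline. In Aducanumab against saline, Gria2 ran from -0.031 to 0.061, Grin1 from -0.065 to 0.045, Grm5 from -0.039 to 0.030 and Dlg4 from -0.045 to 0.028. In ACLP-NT against Aducanumab, Gria1 ran from -0.030 to 0.092, Grin1 from -0.010 to 0.083, Grin2b from -0.054 to 0.082, Camk2a from -0.036 to 0.079 and Camk2b from -0.0021 to 0.12. Log2 ratios ran from -0.041 to 0.019 for Gria1 to Gria2 and -0.046 to 0.085 for Grm3 to Grm5 in ACLP-NT against Aducanumab, -0.015 to 0.089 for Grin2a to Grin2b and -0.062 to 0.029 for Camk2a to Camk2b in Aducanumab against saline, and -0.089 to 0.0017 for Camk2a to Camk2b in ACLP-NT against saline. No paired analysis was possible because no animal number occurs in more than 1 group. Read depth limits Grm8 most, which had as few as 182 counts in a library.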
